A study of Mus musculus with 12 samples.

Results

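The numbered zinc finger protein genes of the mouse are those whose symbol is Zfp followed by digits alone, and 309 of the 13124 genes counted in these kidneys (2.35%) carried such a symbol. They were selected by symbol and by no measured value. RefSeq gives 372 such symbols, of which 63 had no entry in the table and were not analysed here, and relatives whose symbol ends in a letter, such as Zfp354a, were left out. RNA was sequenced from whole perfused kidneys of male C57BL/6 mice taken 24 h after surgery, 3 kidneys in each of 4 groups. Isotype kidneys (4 to 6) came from mice given an isotype control antibody 24 h before warm ischaemia-reperfusion injury (IRI), a temporary block of renal blood flow. Anti-G-CSFR kidneys (7 to 9) had the same injury after the antibody VR81 against the receptor of granulocyte colony-stimulating factor, a growth factor of neutrophils. Anti-C5 kidneys (10 to 12) had the injury after the antibody BB5.1 against complement component C5. Sham kidneys (1 to 3) had a sham operation and are labelled untreated, so isotype against sham differs by the injury and by the antibody. The labels do not tie the kidneys to individual mice, and p-values measure the spread between these kidneys. In RNA of a whole organ, fewer cells of a type and less RNA per cell cannot be told apart.

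Most proteins of this family bind DNA through arrays of C2H2 zinc fingers, each of which folds around a zinc ion and contacts a few bases. A large subfamily also carries a Krüppel-associated box (KRAB), which recruits the corepressor TRIM28 and, through it, the histone methyltransferase SETDB1 and heterochromatin proteins. KRAB zinc finger proteins are best known for silencing retroelements and for keeping imprinted genes methylated in early embryos, and their genes lie in clusters that grew by duplication. A few genes with a Zfp symbol encode other proteins, such as the RNA-binding protein encoded by Zfp36.

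From the coding sequences of the annotation, 149 members encoded C2H2 fingers and a KRAB box pattern near the start of the protein, with a median of 12 fingers. Another 150 encoded C2H2 fingers without that pattern, with a median of 7. The pattern is narrow: Zfp445 and Zfp110, whose products are known KRAB proteins, lacked it and stand in the second class. No C2H2 finger was found in 8 members (Zfp36, Zfp185, Zfp326, Zfp330, Zfp503, Zfp703, Zfp750 and Zfp839). The remaining 2 were Zfp469, for which no coding sequence was matched, and Zfp939, annotated as a pseudogene. Zfp619 encoded the most fingers, 33.

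Between 13200930 and 16324215 reads were counted per kidney, and the family took 0.5107% to 0.586% of them. The family was of low abundance. Its median level was 2.22 CPM (reads of the gene relative to the scaled library size) per kb of exon, against 6.11 CPM per kb over all 12622 genes with an exon length, and 86.7% of members lay under that overall median. The median member had 152 counts per kidney, against 416 for the median gene. By CPM without regard to length, members ranged from 1.4 to 314, with 151 under 10 CPM and 17 over 50 CPM. The KRAB-pattern class had a median of 1.87 CPM per kb and the other C2H2 class 2.56 CPM per kb. On the same scale per kb, the highest members were Zfp706 at 63 CPM per kb, Zfp106 at 24.9, Zfp869 at 18.1, Zfp207 at 17 and Zfp35 at 15.9. All members but Zfp469 had at least 1 count in each of the 12 kidneys. Every gene of the deposited table reached at least 2.01 CPM in 3 or more kidneys, so the 309 are the members that passed that limit and not the whole family. Of them 7 met the limit only when the isotype kidneys were counted, and 3 of these (Zfp57, Zfp469 and Zfp580) are among the genes called higher in isotype kidneys in the counts that follow.

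In isotype kidneys against sham kidneys, 63 of 309 members (20.4%) rose and 87 (28.2%) fell, counting as called an edgeR p below 0.05 after Benjamini-Hochberg (BH) adjustment across the 13124 genes. Over all genes, 32.1% were called higher and 30.7% lower, so the family had fewer rises than the table and about as many falls. The median log2 change of members was -0.13, against 0.03 over all genes. Changes were mostly modest: 9 of 309 members were called higher and 16 lower by more than 2-fold, against 1389 and 1862 of all 13124 genes. The split between rises and falls depends on the scaling. With library totals in place of TMM factors, 89 members (28.8%) were called higher and 56 (18.1%) lower, against 42.6% and 23.6% of all genes, and the median of all genes itself moved to 0.227. Relative to the median of all genes, the median member lay at -0.157 with TMM factors and at -0.158 with library totals. These 2 values are near equal by construction, because a change of scaling shifts all genes together. The same holds for the class medians relative to all genes given below.

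The family was then divided by protein class. Of the 149 KRAB-pattern genes, 15 rose (10.1%) and 49 fell (32.9%) in isotype kidneys against sham, with a median log2 change of -0.22. Of the 150 other C2H2 genes, 43 rose (28.7%) and 35 fell (23.3%), with a median of 0.01. The share of KRAB-pattern genes that fell was near the 30.7% of all genes, and the share that rose was below the 32.1% of all genes. With library totals the KRAB-pattern class had 24 higher (16.1%) and 34 lower calls (22.8%) and a median of -0.022, and its median relative to all genes was -0.249, against -0.25 with TMM factors. Without sham kidney 2, the lower calls in the other C2H2 class numbered 23. Over all genes, the lower calls then numbered 3591, against 4034 with all kidneys. By a count of groups that do not overlap, all isotype kidneys lay below all sham kidneys in 65 KRAB-pattern genes (43.6%), against 33.7% of all genes, and above them in 21 (14.1%), against 35.5%. The share on the lower side was thus above that of all genes by this measure and near it by edgeR calls. The difference between the classes was not tested.

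**Figure D1:**
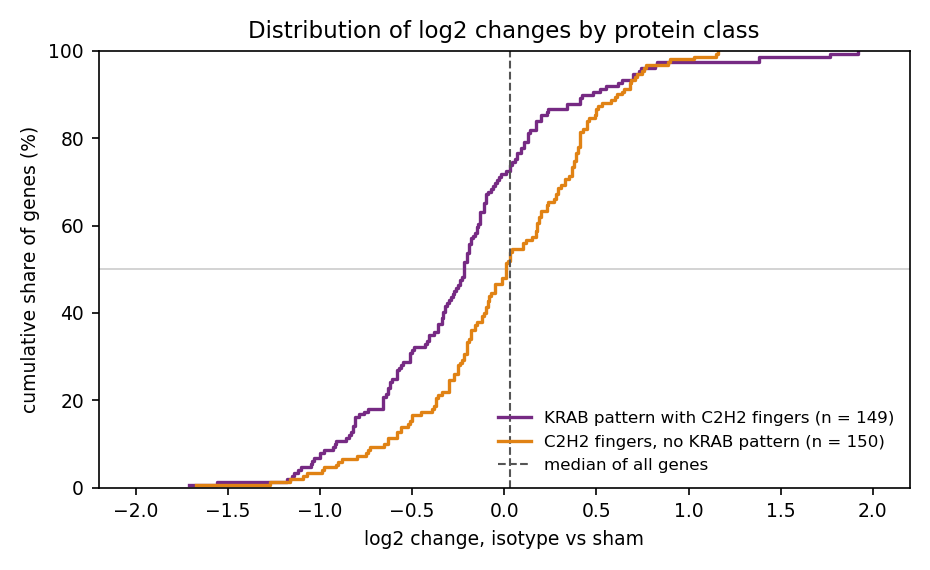
Cumulative share of genes (y axis, %) against their log2 change in isotype kidneys over sham kidneys (x axis) for 149 KRAB-pattern genes and 150 other C2H2 genes, with TMM scaling; the dashed line is the median of all genes, 0.03. The KRAB-pattern curve lies to the left over most of its length and crosses 50% at -0.22, and the other curve crosses it at 0.01.

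Reads shared with near-identical copies touch part of the family. Of the members, 26 had more than 10% of their 100-base windows in common with another gene, and 106 had either that or an exon overlapping another gene, on the same strand in 27 and on the opposite strand in 71. How the counting treated shared reads, and whether it used strand, is not given in the sources used here. Among the genes described below, exons of Zfp36, Zfp52, Zfp106, Zfp143, Zfp174, Zfp367, Zfp593, Zfp703, Zfp706, Zfp784 and Zfp799 overlap a gene on the opposite strand, and those of Zfp91, Zfp708 and Zfp934 a gene on the same strand, which makes their values less certain. Without these 106 members, 11 of 103 KRAB-pattern genes rose and 37 fell, and the class median stayed at -0.22.

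The number of fingers and the abundance were also compared with the changes. KRAB-pattern genes with 6 to 10 fingers had a median log2 change of -0.12 (40 genes), those with 11 to 15 fingers -0.27 (73 genes) and those with 16 or more -0.27 (34 genes), while the 2 genes with 1 to 5 fingers had a median of 0.72. The other C2H2 genes had medians of 0.16 with 1 to 5 fingers (52 genes), 0.18 with 6 to 10 (47 genes), -0.05 with 11 to 15 (28 genes) and -0.11 with 16 or more (23 genes). When members were divided by mean level into 3 sets of 103, the KRAB-pattern medians were -0.22 in the lowest set, -0.25 in the middle set and -0.16 in the highest. The other C2H2 genes had medians of -0.16, 0.17 and 0.02 in the same sets. These are descriptions without a test.

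Among the members that rose, Zfp36 encodes tristetraprolin, a CCCH zinc finger protein that binds AU-rich elements and speeds the decay of inflammatory mRNAs such as that of tumour necrosis factor. Zfp36 (Entrez 22695, chr7:28376784-28380253, minus strand, GRCm38) measured 65.6, 65.9 and 70.1 CPM in isotype kidneys and 29, 31.5 and 33.8 CPM in sham kidneys. The groups did not overlap. The log2 change was 1.10 ± 0.168 (SE; edgeR, BH-adjusted p = 0.000173). Zfp36 measured 34.2, 33.4 and 38.5 CPM in anti-G-CSFR kidneys, all below the isotype kidneys. In anti-C5 kidneys it measured 35, 55.7 and 32.9 CPM, with kidney 11 the highest of the group. It fell against isotype in both (log2 -0.93 and -0.71, edgeR adjusted p = 0.000556 and 0.00334).

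KRAB-pattern genes that rose were few but held the largest rises of the family after Zfp469. Zfp9 (chr6:118461950-118479320, minus strand) measured 6.33, 4.67 and 5.16 CPM in isotype kidneys and 1.47, 1.49 and 1.3 CPM in sham kidneys (log2 1.92 ± 0.358, edgeR adjusted p = 0.000675). Zfp52 (chr17:21535539-21562601, plus strand) measured 22.4, 31.9 and 39 CPM in isotype kidneys, against 8.85, 9.21 and 9.32 CPM in sham kidneys (log2 1.77 ± 0.203, edgeR adjusted p = 2.52e-05). Its neighbour Zfp948 (chr17:21567008-21588699, plus strand) measured 15.7, 15.5 and 16.2 CPM in isotype kidneys, against 5.9, 6.81 and 5.55 CPM in sham kidneys. In all of these genes each isotype kidney lay above each sham kidney. Zfp948 had a log2 change of 1.38 ± 0.285 and Zfp53, on the other side of Zfp52, one of 0.74 ± 0.176 (edgeR adjusted p = 0.00132 and 0.00323). Zfp53 was named after its values were seen. Zfp568, which represses a placental promoter of Igf2 in mouse embryos, measured 26.2, 27 and 30.1 CPM in isotype kidneys and 17.2, 16.1 and 13.5 CPM in sham kidneys, without overlap (log2 0.83 ± 0.132, edgeR adjusted p = 0.00022).

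Regulators of imprinted genes and of retroviruses are given gene by gene, with no statement about them as a group. Zfp57, which protects imprinted methylation in the embryo, was near the lower limit of the table, at 4, 2.4 and 2.48 CPM in isotype kidneys and 1.14, 1.23 and 1.03 CPM in sham kidneys. It met the limit only through the isotype kidneys, so its higher level there (fitted log2 1.38) is given as a description. Zfp445, with a related role at imprinted genes, measured 92.3, 88.2 and 95.3 CPM in isotype kidneys and 106, 95.2 and 97.3 CPM in sham kidneys, with overlap, and was not called (log2 -0.12, edgeR adjusted p = 0.257). Zfp809, which silences retroviral DNA in mouse embryonic stem cells, measured 38.2, 25.3 and 25 CPM in isotype kidneys and 29, 29.1 and 26.2 CPM in sham kidneys and was not called (log2 0.07, edgeR adjusted p = 0.71). Zfp708, a repressor of a retroelement family, had a log2 change of -1.10 (edgeR adjusted p = 0.00208). However, 94.25% of its 100-base windows occur in another annotated gene, and its value is uncertain.

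Among the members with a described role at RNA or ribosomes, Zfp598, a ubiquitin ligase that senses collided ribosomes, measured 61.3, 62.5 and 64.7 CPM in isotype kidneys and 33.8, 33.8 and 33.4 CPM in sham kidneys. The groups lay far apart against a narrow spread (log2 0.90 ± 0.0937, edgeR adjusted p = 1.37e-05, the smallest of the family). Zfp593, whose yeast relative helps export the large ribosomal subunit, measured 18.3, 12.2 and 14.5 CPM in isotype kidneys and 6.97, 5.06 and 8.08 CPM in sham kidneys (log2 1.16 ± 0.211, edgeR adjusted p = 0.000559). Zfp622, whose yeast relative matures that subunit, had a log2 change of 0.43 ± 0.111 (edgeR adjusted p = 0.00544). Zfp207, a spindle and splicing protein, measured 141, 163 and 170.2 CPM in isotype kidneys and 96, 93.9 and 92.5 CPM in sham kidneys, without overlap (log2 0.75 ± 0.0885, edgeR adjusted p = 3.15e-05). Zfp106 and Zfp638, whose products also bind RNA, were not called (log2 -0.19 and 0.03, edgeR adjusted p = 0.162 and 0.822). These genes were put side by side by their role, with no test of the group.

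Other members with a textbook role were called in both directions or not called. Zfp143, an activator at many promoters, had a log2 change of 0.41 ± 0.123, Zfp281, a pluripotency regulator, 0.41 ± 0.118, and Zfp217, an oncogene in breast cancer, 0.41 ± 0.108 (edgeR adjusted p = 0.0117, 0.00918 and 0.00567). Zfp703, a breast cancer oncogene and corepressor with no finger of the searched pattern, rose by 0.68 and its relative Zfp503 fell by 0.55 on the log2 scale (edgeR adjusted p = 0.00303 and 0.00106). Zfp648, of unknown role, measured 5.56, 5.9 and 5.61 CPM in isotype kidneys and 2.95, 2.6 and 2.12 CPM in sham kidneys, without overlap (log2 1.15, edgeR adjusted p = 0.00195). Zfp467, which steers marrow stromal cells toward fat, measured 16.2, 18.2 and 17 CPM in isotype kidneys and 26.7, 31.1 and 27.1 CPM in sham kidneys (log2 -0.73, edgeR adjusted p = 0.00103). Not called were Zfp91 (log2 0.19), Zfp110 (-0.10), Zfp423 (-0.07) and Zfp521 (-0.08) (edgeR adjusted p = 0.223, 0.294, 0.883 and 0.774). Without isotype kidney 4, Zfp91 was called higher (log2 0.35, edgeR adjusted p = 0.00375).

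Zfp469 had the largest fitted change. Its human counterpart, ZNF469, is mutated in brittle cornea syndrome and is linked to collagen matrix. Zfp469 (Entrez 195209) had 113, 103 and 88 counts in isotype kidneys and 2, 2 and 1 counts in sham kidneys. Scaled by library totals, the isotype counts were 62.8-fold those of sham, with an exact 95% interval of 26.6 to 195 that covers counting error only. It met the limit of the table only through the isotype kidneys, so it could be listed only by being high there, and the fold is a description. It had 5, 3 and 8 counts in anti-G-CSFR kidneys, and 5, 41 and 0 counts in anti-C5 kidneys, where kidney 11 held nearly all of them. The 5 fibroblast marker genes measured 663 to 725 CPM in sum in isotype kidneys, 172 to 431 in anti-G-CSFR kidneys, 202 to 543 in anti-C5 kidneys and 194 to 289.5 in sham kidneys. Their part in the Zfp469 result was not tested.

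Falls reached their largest size in Zfp750, a differentiation factor of the epidermis that has no finger of the searched pattern. Zfp750 (chr11:121510978-121519333, minus strand) measured 1.44, 1.35 and 1.27 CPM in isotype kidneys and 4.69, 5 and 6.58 CPM in sham kidneys (log2 -1.99 ± 0.294, edgeR adjusted p = 0.000135). Zfp101 (Entrez 22643, chr17:33360507-33394641, minus strand), a KRAB-pattern gene with 12 fingers, measured 4.06, 3.99 and 2.99 CPM in isotype kidneys and 9.38, 14.3 and 12.5 CPM in sham kidneys (log2 -1.71 ± 0.25, edgeR adjusted p = 0.000127). Zfp444 (Entrez 72667, chr7:6172226-6193811, plus strand) measured 9.5, 10.9 and 8.41 CPM in isotype kidneys and 26.3, 29.5 and 36 CPM in sham kidneys (log2 -1.67 ± 0.215, edgeR adjusted p = 5.41e-05). Each isotype kidney lay below each sham kidney in these genes. The next 5 falls without overlap were smaller.

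Those genes were Zfp108 (log2 -1.56), Zfp784 (-1.27), Zfp454 (-1.18), Zfp174 (-1.16) and Zfp30 (-1.15), all with edgeR adjusted p of 0.003 or less and all under 7 CPM in every kidney. Zfp30, a candidate regulator of the neutrophil chemokine Cxcl1 in mouse airways, measured 2.83, 3.44 and 2.23 CPM in isotype kidneys and 6.3, 6.03 and 6.64 CPM in sham kidneys. Zfp706, the most abundant member per kb, encodes a small protein with a single finger that restrains self-renewal of mouse embryonic stem cells. It measured 204, 149 and 142 CPM in isotype kidneys and 326, 367 and 359 CPM in sham kidneys, far apart (log2 -1.09 ± 0.164, edgeR adjusted p = 0.000152). Zfp35, also abundant per kb, had a log2 change of -0.63 (edgeR adjusted p = 0.00549). Zfp869, a KRAB-pattern gene of similar abundance per kb, measured 28.2, 26.4 and 27.6 CPM in isotype kidneys and 29.7, 30.4 and 28.8 CPM in sham kidneys and was not called (log2 -0.11, edgeR adjusted p = 0.244).

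**Figure D2:**
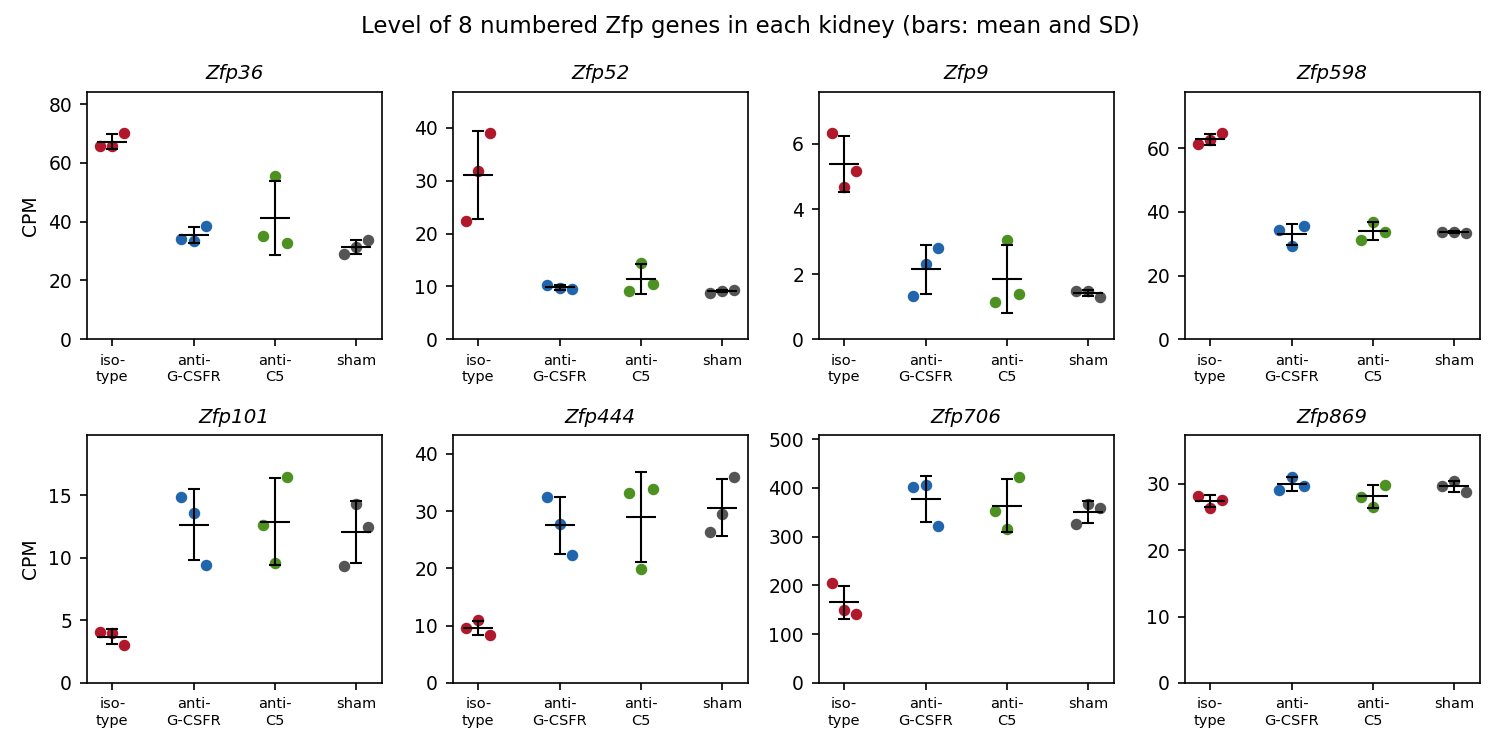
Level in CPM (y axis, from 0) of 8 members in each kidney of the isotype, anti-G-CSFR, anti-C5 and sham groups (x axis); dots are kidneys and bars the mean and SD of 3. Isotype kidneys stand above all others for Zfp36, Zfp52, Zfp9 and Zfp598 and below all others for Zfp101, Zfp444 and Zfp706, and Zfp869 ranges from 26.4 to 31.1 CPM over the 12 kidneys.

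Some calls lay close to the threshold and were lost when a kidney was left out. Zfp148, a regulator that binds GC-rich promoters, had a log2 change of -0.24 (edgeR adjusted p = 0.0395), and its adjusted p was 0.158 without sham kidney 1, 0.0822 without sham kidney 2, 0.0902 without isotype kidney 4 and 0.0855 without isotype kidney 5. Zfp367 had a log2 change of -0.37 (edgeR adjusted p = 0.0438), and every omission of an isotype or sham kidney lost the call, with adjusted p between 0.0533 and 0.107. The call was also lost without anti-G-CSFR kidney 7 (0.0546) or kidney 8 (0.0532). Zfp395 had a log2 change of -0.50 (edgeR adjusted p = 0.0254), and its adjusted p was 0.0921 without sham kidney 1, 0.0818 without sham kidney 2, 0.0848 without isotype kidney 4 and 0.0552 without isotype kidney 5. With library totals none of them was called (log2 -0.04, -0.17 and -0.30 for Zfp148, Zfp367 and Zfp395; edgeR adjusted p = 0.75, 0.4 and 0.181), and with upper-quartile factors Zfp367 was not (edgeR adjusted p = 0.0548). All of these kept a negative change.

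The position of the members was set beside their calls. The 308 members with a position in the annotation were most numerous on chromosome 7 (77 members), chromosome 17 (40), chromosome 13 (27) and chromosome 8 (23). Runs of at least 5 members with gaps of at most 500 kb held 125 members, of which 21 (16.8%) rose and 43 (34.4%) fell in isotype kidneys against sham. Outside such runs 41 of 183 (22.4%) rose and 44 (24%) fell. Of all genes 32.1% rose and 30.7% fell. Within the KRAB-pattern class, 10 of 81 clustered genes rose and 31 fell, and 5 of 68 other genes rose and 18 fell. In the run of 10 members on chr17:32765496-33631779, from Zfp871 to Zfp414, 6 fell, 1 rose and the median log2 change was -0.66. It holds Zfp101 and Zfp871, an abundant KRAB-pattern gene at 71.7, 87.7 and 87.7 CPM in isotype kidneys and 131, 135 and 124 CPM in sham kidneys (log2 -0.66, edgeR adjusted p = 0.000754), and Zfp799 (log2 -1.04). In the run of 10 on chr7:24081924-24515682, 5 fell and none rose. The longest run, 23 members on chr17:21008903-23599487, was mixed, with 6 rises and 6 falls, and holds the adjacent genes Zfp53, Zfp52 and Zfp948 that rose. These runs were chosen after their values were seen, and gene neighbours are not independent of each other.

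**Figure D3:**
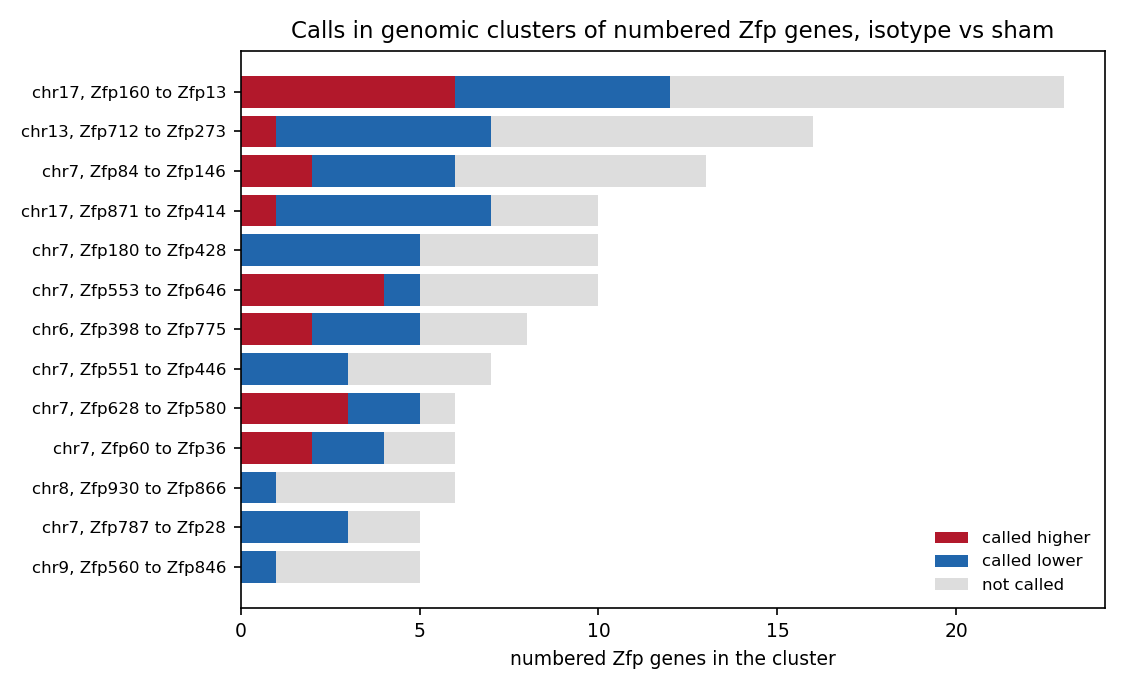
Number of members (x axis) called higher, called lower or not called in isotype against sham kidneys, with TMM scaling, in each run of at least 5 neighbouring members (y axis, chromosome and first and last gene). The longest run, on chromosome 17, has 6 higher and 6 lower of 23, and the run from Zfp871 to Zfp414 has 1 higher and 6 lower of 10.

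The promoters of the KRAB-pattern class had a different base composition from those of the table. The 250 bases before the start site were read from RefSeq (GRCm38.p6) for 256 members and 10428 genes in all. Median GC content was 51.6% in 131 KRAB-pattern promoters, 58.4% in 118 other C2H2 promoters and 59.6% in all, and the observed over expected CpG ratio had medians of 0.52, 0.68 and 0.72 in the same order. The letters CCAAT, on either strand, were present in 58.8% of KRAB-pattern promoters, 39% of other C2H2 promoters and 36.2% of all. The GC box GGGCGG, on either strand, was present in 31.3%, 50.8% and 58.5%. A site bound by ZFP143, searched on either strand as the letters in capitals in the Zfp108 promoter printed next, was present in 7 KRAB-pattern promoters (5.34%), in 2 other C2H2 promoters (1.69%) and in 0.671% of all. Among the 45 KRAB-pattern genes that fell and had a promoter, 57.8% held CCAAT, close to the whole class, and 4 held the ZFP143 letters (8.89%). These shares were not tested, and a match is not evidence of binding.

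A few promoters are printed to show these features, each as the 250 bases before the start on the plus strand of GRCm38.p6 with the matched motif in capitals. Zfp108 (chr7:24254544-24254793, plus strand) and Zfp93 (chr7:24270168-24270417, plus strand) are neighbours in the chromosome 7 run that both fell, and both hold the ZFP143 letters at a like distance from the start. Zfp30 (chr7:29783718-29783967, plus strand) fell and holds CCAAT. Zfp52 (chr17:21535289-21535538, plus strand) and Zfp598 (chr17:24669437-24669686, plus strand) rose and hold GC boxes. Of the promoters of members that rose, 46.9% held the GC box and 40.8% CCAAT. Of those of members that fell, 38.4% and 50.7% did, and of all genes 58.5% and 36.2%. The examples thus show the letters only, and a link with the direction of change was not tested.
Zfp108: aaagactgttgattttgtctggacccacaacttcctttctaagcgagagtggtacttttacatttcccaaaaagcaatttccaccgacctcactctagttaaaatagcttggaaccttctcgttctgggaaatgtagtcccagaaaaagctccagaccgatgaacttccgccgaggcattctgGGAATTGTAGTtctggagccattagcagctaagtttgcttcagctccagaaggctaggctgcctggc
Zfp93: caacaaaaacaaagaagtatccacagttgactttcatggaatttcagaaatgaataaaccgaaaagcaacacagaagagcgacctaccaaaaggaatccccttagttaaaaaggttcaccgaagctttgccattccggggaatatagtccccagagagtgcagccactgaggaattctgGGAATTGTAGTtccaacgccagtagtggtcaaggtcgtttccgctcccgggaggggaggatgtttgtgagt
Zfp30: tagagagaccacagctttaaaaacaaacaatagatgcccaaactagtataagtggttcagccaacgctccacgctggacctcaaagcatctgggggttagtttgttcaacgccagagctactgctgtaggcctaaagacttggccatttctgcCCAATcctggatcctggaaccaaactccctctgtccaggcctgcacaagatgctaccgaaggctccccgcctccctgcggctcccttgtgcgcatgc
Zfp52: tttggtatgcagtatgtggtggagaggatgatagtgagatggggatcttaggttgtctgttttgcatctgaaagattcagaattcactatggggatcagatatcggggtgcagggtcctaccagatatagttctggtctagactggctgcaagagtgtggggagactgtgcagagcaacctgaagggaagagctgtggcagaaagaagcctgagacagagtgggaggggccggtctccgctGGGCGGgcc
Zfp598: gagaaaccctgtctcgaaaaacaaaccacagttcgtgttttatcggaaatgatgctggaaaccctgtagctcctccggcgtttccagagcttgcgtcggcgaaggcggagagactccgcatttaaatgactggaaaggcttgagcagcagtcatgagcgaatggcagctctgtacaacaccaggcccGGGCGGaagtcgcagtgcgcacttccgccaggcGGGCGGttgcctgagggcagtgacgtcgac

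Zfp93, named after its values were seen, measured 5.56, 4.85 and 4.52 CPM in isotype kidneys and 8.58, 10.8 and 10.2 CPM in sham kidneys (log2 -0.98, edgeR adjusted p = 0.000417). Its neighbour Zfp108 measured 1.33, 0.676 and 0.956 CPM in isotype kidneys and 3.22, 2.27 and 3.36 CPM in sham kidneys, also without overlap.

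In anti-G-CSFR kidneys against isotype kidneys, 96 of 309 members (31.1%) rose and 60 (19.4%) fell, against 31.5% and 32% of all genes. In anti-C5 kidneys against isotype kidneys, 91 (29.4%) rose and 52 (16.8%) fell, against 30.5% and 29.8% of all genes. Members that met the limit of the table only through the isotype kidneys can be among these falls, as Zfp57 and Zfp469 are in both. Their part in the falls counted here, and in the opposite calls that follow, is a description. The KRAB-pattern class had 62 rises (41.6%) and 9 falls (6.04%) in anti-G-CSFR kidneys, and 62 rises (41.6%) and 7 falls (4.7%) in anti-C5 kidneys. Its median log2 changes were 0.29 and 0.30. Kidneys of the 2 groups did not overlap, with the antibody group higher, in 74 KRAB-pattern genes (49.7%) for anti-G-CSFR and 69 (46.3%) for anti-C5, against 33% and 31.7% of all genes. The antibody group was lower in 18 (12.1%) and 12 (8.05%), against 34.1% and 31% of all genes. The other C2H2 class had 30 rises and 46 falls in anti-G-CSFR kidneys and 25 rises and 40 falls in anti-C5 kidneys, with medians of -0.05 and -0.02. With library totals the family had 56 higher (18.1%) and 89 lower calls (28.8%) in anti-G-CSFR kidneys, against 23.7% and 42.3% of all genes. In anti-C5 kidneys it had 52 (16.8%) and 81 (26.2%), against 23.7% and 38.9%. The KRAB-pattern median relative to all genes was 0.317 and 0.315, against 0.317 and 0.311 with TMM factors. With library totals the KRAB-pattern class still had more higher than lower calls, 37 against 21 and 34 against 17.

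Single kidneys moved some of these counts. The falls of the other C2H2 class in anti-G-CSFR kidneys numbered 29 without isotype kidney 6, 30 without anti-G-CSFR kidney 7 and 29 without anti-G-CSFR kidney 8. In anti-C5 against isotype, leaving out anti-C5 kidney 12 left 60 rises and 33 falls in the family, 37 rises in the KRAB-pattern class and 23 falls in the other C2H2 class. Without isotype kidney 5 there were 40 KRAB-pattern rises and 25 falls in the other C2H2 class, and without isotype kidney 6 those falls were also 25. The KRAB-pattern falls numbered 4 without anti-C5 kidney 10 and 12 without anti-C5 kidney 11. Calls over all genes moved too. In anti-C5 against isotype, 4006 genes were higher and 3913 lower with all kidneys. Without anti-C5 kidney 12 these were 3488 and 3156, and without isotype kidney 5 they were 3479 and 3257. In anti-G-CSFR against isotype, 4197 genes were lower with all kidneys and 3637 without isotype kidney 6. Those numbered 3600 without anti-G-CSFR kidney 7 and 3583 without kidney 8.

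**Figure D4:**
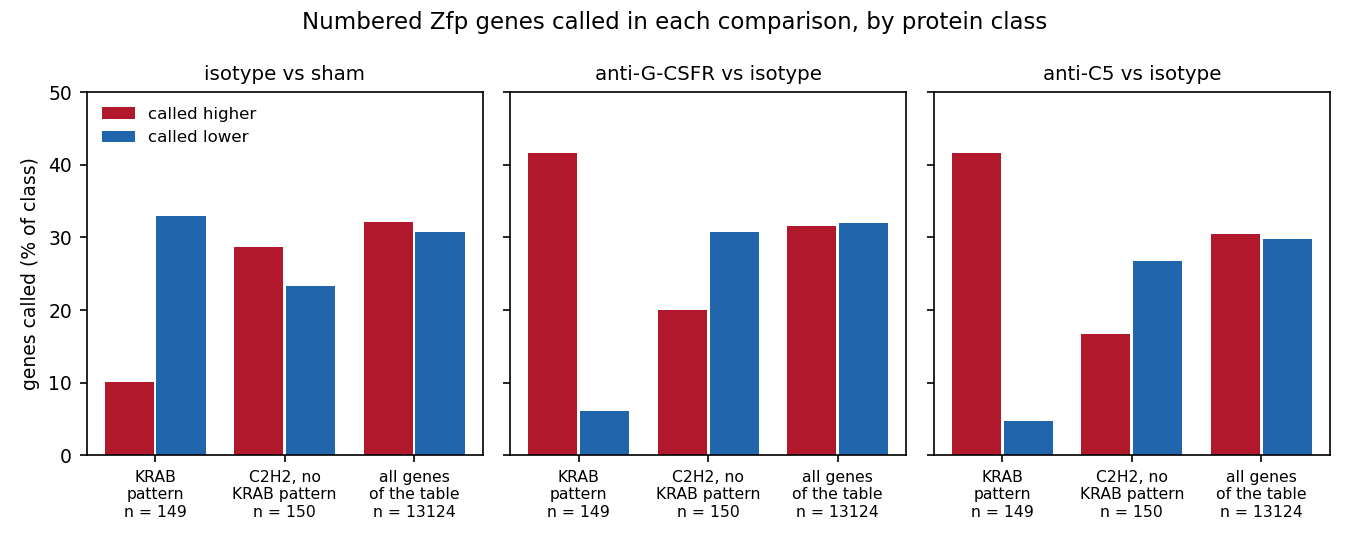
Share of genes called (y axis, % of the class) higher and lower in each comparison (panels) for 149 KRAB-pattern genes, 150 other C2H2 genes and all 13124 genes, with TMM scaling. KRAB-pattern genes have 10.1% higher calls in isotype against sham, and 6.04% and 4.7% lower calls in the antibody groups against isotype; with library totals the split of higher and lower calls shifts in all sets.

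The comparisons of each antibody group with isotype and of isotype with sham share the isotype kidneys, so opposite calls are in part the same measurement. Of the 49 KRAB-pattern genes lower in isotype against sham, 46 were higher in anti-G-CSFR and 44 in anti-C5 kidneys against isotype. Of the 15 that were higher, 8 and 7 were lower in the antibody groups. In the other C2H2 class, 27 and 24 of the 35 lower genes were higher in the antibody groups. Of its 43 higher genes, 38 and 33 were lower there. The same count was not made over all genes, so these numbers do not show a trait of the family. Examples give the values side by side. Zfp101 measured 14.9, 13.6 and 9.46 CPM in anti-G-CSFR kidneys and 12.6, 9.62 and 16.5 CPM in anti-C5 kidneys, all above the isotype kidneys (log2 1.78 and 1.80, edgeR adjusted p = 0.000106 and 0.000124). Zfp612, a KRAB-pattern gene, measured 11.4, 12.6 and 11 CPM in anti-G-CSFR kidneys, 10.7, 8.75 and 13 CPM in anti-C5 kidneys and 5.17, 4.85 and 5.1 CPM in isotype kidneys. It rose in both antibody groups (log2 1.21 and 1.10, edgeR adjusted p = 0.000143 and 0.000325). Zfp52 measured 10.3, 9.77 and 9.46 CPM in anti-G-CSFR kidneys and 9.1, 14.5 and 10.5 CPM in anti-C5 kidneys, below every isotype kidney (log2 -1.66 and -1.45, edgeR adjusted p = 4.39e-05 and 0.000118).

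Other members followed in the same comparisons. Zfp598 measured 34.2, 29.3 and 35.6 CPM in anti-G-CSFR kidneys and 31.2, 36.8 and 33.6 CPM in anti-C5 kidneys, and Zfp706 402, 406 and 322 CPM in anti-G-CSFR kidneys and 352, 316 and 423 CPM in anti-C5 kidneys. Both sets lay wholly apart from the isotype kidneys (Zfp598 log2 -0.93 and -0.89, Zfp706 log2 1.19 and 1.14; edgeR adjusted p of 0.000153 or less). Zfp948 measured 6.67, 5.67 and 4.99 CPM in anti-G-CSFR kidneys and 4.87, 14 and 7.96 CPM in anti-C5 kidneys, where kidney 11 was near the isotype level. Its fall in anti-C5 kidneys (log2 -0.82, edgeR adjusted p = 0.023) was not called without isotype kidney 6 (adjusted p = 0.0557), anti-C5 kidney 10 (0.0615) or anti-C5 kidney 12 (0.0749). Zfp57 measured 0.991, 1.94 and 1.51 CPM in anti-G-CSFR kidneys and 1.06, 2.39 and 0.928 CPM in anti-C5 kidneys, all below the isotype kidneys through which it met the limit of the table. Zfp934 was called in anti-C5 kidneys alone, with 3.32, 6.94 and 4.95 CPM in anti-C5 kidneys and 3.17, 1.17 and 1.91 CPM in isotype kidneys (log2 1.27, edgeR adjusted p = 0.0102). In anti-G-CSFR kidneys it measured 4.95, 3.28 and 3.03 CPM (log2 0.84, edgeR adjusted p = 0.0629). Without isotype kidney 4 edgeR called this too (log2 1.29, adjusted p = 0.0105), as it was without anti-C5 kidney 11 (adjusted p = 0.0476). The difference between the antibody groups was not called for any member.

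Against sham kidneys, no member was called in either antibody group by edgeR, nor was any between anti-G-CSFR and anti-C5 kidneys. Over all 13124 genes the calls were also 0 (0%) in each direction. At an unadjusted p below 0.05, 4 members were higher and 0 lower in anti-G-CSFR against sham, 10 higher and 4 lower in anti-C5 against sham, and 1 higher and 2 lower in anti-G-CSFR against anti-C5. Over all 13124 genes these counts were 506 and 272, 946 and 541, and 64 and 143 in the same order. No member was called by DESeq2 or limma-voom either, while over the whole table DESeq2 called 1 gene higher in anti-G-CSFR against sham, 70 higher and 42 lower in anti-C5 against sham, and 2 lower in anti-G-CSFR against anti-C5. With edgeR fitted to the anti-G-CSFR and sham kidneys alone, 41 genes were higher and 2 lower, with 0 members among them. Nonoverlapping kidneys were found higher in 26 members (8.41%) and lower in 22 (7.12%) in anti-G-CSFR against sham, near the 9.47% and 8.9% of all genes. In anti-C5 against sham they were 16 (5.18%) and 20 (6.47%), against 9.36% and 8.59% of all genes, and in anti-G-CSFR against anti-C5 they were 8 (2.59%) and 10 (3.24%), against 1.9% and 2.38%. Median log2 changes of the KRAB-pattern class were 0.05 in anti-G-CSFR against sham, 0.03 in anti-C5 against sham and 0.01 in anti-G-CSFR against anti-C5. These values do not show that the groups were alike.

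Taking each kidney by itself, the KRAB-pattern median stood at -0.112, -0.252 and -0.247 (log2 difference from the sham mean) in isotype kidneys 4, 5 and 6. It was 0.107, 0.033 and 0.006 in anti-G-CSFR kidneys, -0.009, -0.042 and 0.15 in anti-C5 kidneys and -0.041, 0.058 and -0.02 in sham kidneys. The isotype kidneys were the lowest of the 12. In the other C2H2 class, the medians of all 12 kidneys lay between -0.03 and 0.013. Summed CPM of the KRAB-pattern genes was 1367 to 1469 in isotype kidneys, 1653 to 1777 in anti-G-CSFR kidneys, 1608 to 1818 in anti-C5 kidneys and 1606 to 1727 in sham kidneys.

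**Figure D5:**
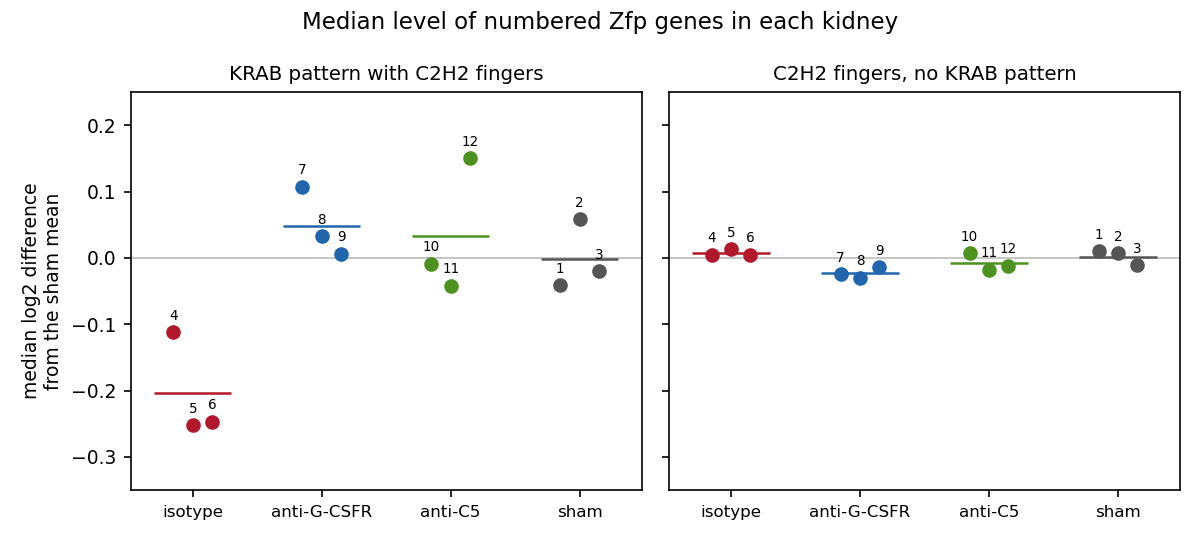
Median log2 difference from the mean of the sham kidneys (y axis) over the KRAB-pattern genes (left) and the other C2H2 genes (right) in each kidney, by group (x axis); numbers name the kidneys and lines are group means. KRAB-pattern medians are -0.112, -0.252 and -0.247 in the isotype kidneys and between -0.042 and 0.15 in the others, and the other class stays between -0.03 and 0.013.

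Markers of several cell types moved with the groups, and in isotype against sham other lists were called in small part or in both directions. In isotype against sham, 5 of 6 loop and distal tubule markers fell. Of the 5 endothelial markers 2 rose, and of the 5 fibroblast markers 4 rose. Of the 5 podocyte markers 1 rose and 1 fell, and of the 8 macrophage markers 1 rose and 1 fell. Over all genes, 32.1% rose and 30.7% fell. In each antibody group against isotype, 4 of the 5 podocyte and 4 of the 5 endothelial markers fell and none rose. Of all genes, 32% fell in anti-G-CSFR kidneys and 29.8% in anti-C5 kidneys. All 10 proximal tubule markers fell in isotype against sham, and their summed level was 10872 to 17487 CPM in isotype kidneys, 28454 to 49791 in anti-G-CSFR kidneys, 28799 to 51407 in anti-C5 kidneys and 35543 to 40427 in sham kidneys. The 5 injured tubule markers summed to 7195 to 7352 CPM in isotype kidneys, 44 to 537 in anti-G-CSFR kidneys, 39 to 1926 in anti-C5 kidneys and 29.4 to 48.3 in sham kidneys, with kidney 11 the highest outside the isotype group. Of the neutrophil markers, 7 of 9 were in the table and all 7 rose in isotype against sham. They summed to 46.9 to 124 CPM in isotype kidneys, 1.94 to 2.91 in anti-G-CSFR kidneys, 7.48 to 113 in anti-C5 kidneys and 7.81 to 10.1 in sham kidneys. The sums in sham and anti-G-CSFR kidneys are low against the table limit of 2.01 CPM per gene in 3 kidneys. Some of the 7 may therefore be listed only by being high in isotype kidneys, and their rises are given as a description. None of the 7 T and B cell markers was in the table. The part of these cell types in the changes of the Zfp genes was not tested.

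The corepressor machinery through which KRAB proteins act was looked up as a separate list of 37 genes, all in the table. It held 38 symbols, as Tasor and Fam208a name the same gene, and it includes Zfp57 and Zfp445. In isotype against sham, 16 (43.2%) rose and 2 (5.41%) fell, with a median log2 change of 0.22, against 32.1% and 30.7% of all genes and their median of 0.03. In each antibody group against isotype, 2 (5.41%) rose and 17 (45.9%) fell. Of all genes 31.5% rose and 32% fell in anti-G-CSFR kidneys, and 30.5% rose and 29.8% fell in anti-C5 kidneys. Zfp57 and Dnmt3b, both among the rises in isotype against sham, met the limit of the table only through the isotype kidneys. Their part in these counts is a description. Trim28, the corepressor bound by KRAB, measured 119, 131 and 133 CPM in isotype kidneys, 59.8, 56.4 and 75.5 CPM in anti-G-CSFR kidneys, 66.3, 82.4 and 58.7 CPM in anti-C5 kidneys and 75.1, 70.3 and 66 CPM in sham kidneys. Isotype kidneys lay above all others (isotype against sham log2 0.86 ± 0.137, edgeR adjusted p = 0.000233). Setdb1, the methyltransferase that follows TRIM28, had a log2 change of 0.42 (edgeR adjusted p = 0.00431). The histone demethylase gene Kdm1a rose by 1.07 on the log2 scale, and the genes that fell were Chd3 (log2 -0.57), a subunit of a remodelling complex that TRIM28 recruits, and Tasor (-0.45), of the HUSH silencing complex. These 3 were named after their values were seen (edgeR adjusted p = 2.79e-05, 0.001 and 0.0138). Other listed genes of such remodelling complexes, also named afterwards, did not fall. Chd4 and Mta2 rose (log2 0.51 and 0.63, edgeR adjusted p = 0.0128 and 0.000422), and Hdac1 and Hdac2 were not called. Tasor was not called without sham kidney 1 (log2 -0.36, edgeR adjusted p = 0.0614) or with library totals (log2 -0.25, edgeR adjusted p = 0.114). A link between the corepressor genes and the Zfp genes was not tested.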

How the data were processed

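The authors deposited raw read counts per gene for 12 kidney libraries, made from strand-specific single-end reads of 100 bases, per the labels' protocols. The submitters' processing notes name Bowtie2 2.2.5, TopHat2 2.1.0, featureCounts and the build GRCm38.p4; the counting settings are not given in the sources here. All libraries ran in lane 8 of a flow cell, and the labels name no batch.

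Symbols came from RefSeq (GRCm38.p6) by Entrez identifier, for 13074 of 13124 genes. The 50 genes without one held 0.0811% of counts and stayed in the tests. Coordinates, exon lengths and coding sequences came from GENCODE M21 (GRCm38), and fingers and the KRAB box pattern were counted by script in the translated coding sequences, with the KRAB search limited to the first 150 residues. Chi-square over degrees of freedom between kidneys of the same group was 5.45 to 65.3, so none was a repeat of another. The test was edgeR 4.0.16 (R 4.3.3; TMM factors, robust quasi-likelihood fit over all 12 libraries, 8 residual degrees of freedom) and BH adjustment over 13124 genes in each of 6 comparisons. The common biological coefficient of variation was 16.4%. Log2 changes and SE are from this fit, and CPM uses the TMM factors.

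Alternatives were upper-quartile or RLE factors, library totals, a minimum of 5 CPM in 3 libraries, DESeq2 1.42.0, limma-voom (limma 3.58.1), the 6 compared libraries alone, a fit that is not robust, each library left out, and kidneys 9 and 11 left out together. Named genes were those with a textbook role, the largest changes without overlap between groups (8 each way for isotype against sham, 5 each way for each antibody group against isotype) and the 5 with the highest CPM per kb. One result for a further gene is not reported here. The members, classes and lists were chosen with earlier results of these data known.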

Additional observations from a re-analysis of the deposited data

How the results depend on the processing

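No paired analysis was possible because the kidneys are numbered 1 to 12 and no number occurs in 2 groups. Library totals moved the most counts: in isotype against sham, 56 members were lower, 24 KRAB-pattern genes higher and 20 other C2H2 genes lower. In anti-G-CSFR against isotype they gave 56 members, 37 KRAB-pattern and 17 other C2H2 genes higher, and 21 KRAB-pattern genes lower. In anti-C5 against isotype they gave 52 members and 34 KRAB-pattern genes higher, and 81 members and 17 KRAB-pattern genes lower. By construction this scaling shifts the changes of all genes together. With the 6 compared libraries alone, anti-C5 against isotype had 57 members and 36 KRAB-pattern genes higher, and 34 members, 4 KRAB-pattern and 25 other C2H2 genes lower. Over all genes, 3275 were then higher and 3162 lower, against 4006 and 3913 in the fit of all libraries. Without kidneys 9 and 11, 11 KRAB-pattern genes were lower in anti-C5 against isotype, with 4009 of all genes lower. Leaving out each kidney in turn gave 23 to 34 other C2H2 genes lower in isotype against sham, and 29 to 50 lower in anti-G-CSFR against isotype. It gave 60 to 96 members and 37 to 65 KRAB-pattern genes higher, and 33 to 59 members, 4 to 12 KRAB-pattern and 23 to 44 other C2H2 genes lower in anti-C5 against isotype. Beyond these the cause was not tested. The remaining counts stayed within 1.5 times under every alternative run. For 53 named genes in the 3 comparisons with isotype kidneys, no called change reversed in 3318 alternative values, of which 52 lost and 31 gained a call. With a median of 152 counts per kidney, members are measured less precisely than the median gene, and the common spread of 16.4% between kidneys limits small changes.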
